A study of Rattus norvegicus with 108 samples.

Results

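Arhgap28 encodes a GTPase-activating protein, a class of proteins that switch a bound small GTPase off by speeding the hydrolysis of its GTP. Small GTPases act as molecular switches, and those that govern actin filaments and myosin are known in brain for their part in neurite growth, in the barrier of blood vessels and in the contraction of pericytes and smooth muscle. Arhgap28 is 1 of 19127 genes in the count tables deposited for the dentate gyrus, dorsal (dorDG) and ventral (venDG), and it is described here by replicate, reaction and cell. The gene was chosen by its level in ventral mural cells (pericytes and vascular smooth muscle), where fluoxetine-treated samples had high values against Sham. For that reason its venDG values under treatment are given as a description, with no test.

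All animals were male Long-Evans rats bought from Charles River or bred from them, 2 months old when treatment began. The fluoxetine group (FT) drank fluoxetine, a serotonin reuptake inhibitor, at 18 mg per kg per day for 6 weeks. The Sham group drank water for the same time. Each replicate pooled punches from 3 animals, so differences between single animals cannot be seen, and both regions were punched from the same set of animals. The dorDG FT group had 4 replicates, numbered 1, 2, 4 and 5, and the dorDG Sham, venDG FT and venDG Sham groups had 5 each. The 10x Genomics 3′ assay counts each captured transcript end by a unique molecular identifier (UMI), and levels are given as UMIs of the gene per 10000 UMIs of all genes. A reaction is 1 loading of the 10x instrument; replicates 1 and 2 of every group had 2 reactions and the others had 1, which gave 27 reactions in all.

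Facts of the whole series that touch Arhgap28 are these. Replicates held 42 to 384 cells and 220162 to 1523537 UMIs, and 38.6% of the 3347 cells had under 2% of their UMIs in ribosomal protein genes. The labels speak of nuclei, the study's methods of whole cells and nuclei, and neither says which reaction held which. In replicates with 2 reactions, cells under 2% ribosomal UMIs made up 5.10% to 18.8% of the first reactions. They made up 78.3% to 97.5% of the second reactions. Between reactions, 9 cell barcodes were shared. The venDG table has a further 170 columns whose names carry a second suffix after the reaction name. The suffix reads HiSeq4K, like the name of the HiSeq 4000 sequencer, and no label explains it. They belong to 1 reaction, the second of venDG FT replicate 2, and 167 of their barcodes repeat a barcode of that reaction's plain columns. The plain columns were used as the data and the suffixed ones were set beside them.

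Nearly every Arhgap28 UMI in venDG came from that 1 reaction. The plain venDG columns held 10127 Arhgap28 UMIs, of which 9896 (97.7%) were in the second reaction of FT replicate 2, a reaction with 4.28% of all venDG UMIs. The level there was 271.6 per 10000 (exact Poisson 95% interval 266.3 to 277, counting error only), and the gene took 2.72% of the reaction's UMIs. Counted as UMIs, with 1 captured end per transcript and no division by length, Arhgap28 was the gene with rank 2 in that reaction, behind Idh3g, a subunit of isocitrate dehydrogenase. In the suffixed columns its rank was 6846.

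In the other 26 reactions the level lay between 0.0874 and 0.954, with a median of 0.260. The first reaction of the same replicate, made from the same pool, was at 0.108. It had 18.8% of its cells under 2% ribosomal UMIs, beside 92.1% in the second reaction. The high reaction stood 285-fold above the highest of the others. Among 133388 combinations of a gene and a reaction with at least 20 UMIs, 13 stood 5-fold or more above every other reaction, and after Arhgap28 the next was Sec14l4 at 29.6-fold with 21 UMIs. No group other than venDG FT held a reaction above 1 per 10000.

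**Figure D1:**
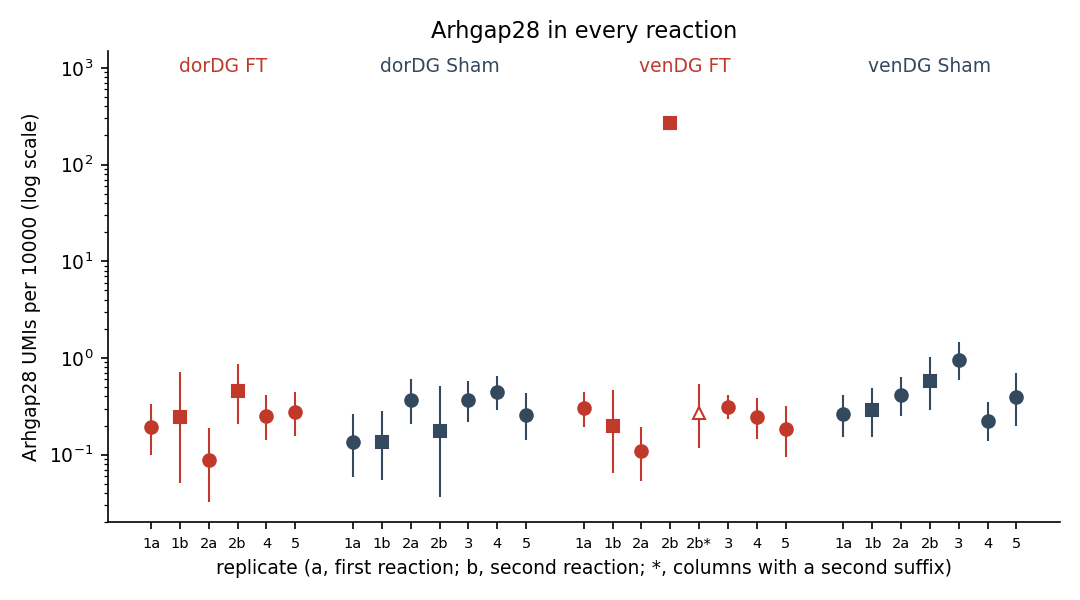
Arhgap28 level in each reaction (UMIs per 10000, log axis), with exact Poisson 95% intervals for counting error. Circles are first or only reactions, squares second reactions and the open triangle the columns with a second suffix. The square of venDG FT replicate 2 lies at 271.6 and every other symbol below 1.

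The high value was not carried by a few cells. All 177 cells of the reaction had Arhgap28 UMIs, from 13 to 374 per cell with a median of 42. As a share of each cell's UMIs the gene ran from 0.845% to 4.38%, with a median of 2.84% and quartiles of 2.31% and 3.26%. The count followed the size of the cell, with a Pearson correlation of 0.913 and a Spearman correlation of 0.852 between Arhgap28 UMIs and total UMIs across the 177 cells, which share 1 library preparation and are not replicates. Outside the reaction, 309 of 3170 cells had a UMI, 260 of them exactly 1, and the highest cell had 5. No cell of the reaction therefore overlapped any cell of the others in UMI count.

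The cell barcodes below are shown because they name the same droplets in both sets of columns; they are the 3 highest and the 3 lowest in Arhgap28 UMIs among the 167 shared barcodes, written 5′ to 3′.
high cell 1: gtgcggtcatatacgc
high cell 2: tgcgtgggtgttcttt
high cell 3: aaccatgcacactgcg
low cell 1: acaccggcatgaagta
low cell 2: gtatcttaggaactgc
low cell 3: agctctcaggtgttaa

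High cell 1 had 374 Arhgap28 UMIs of 12633 in the plain columns and 0 of 11000 in the suffixed ones. High cell 2 had 236 of 8575 against 1 of 7249, and high cell 3 had 205 of 5307 against 0 of 4114. The low cells had 16 of 1036, 15 of 1133 and 13 of 1192 in the plain columns, and 0 in each case in the suffixed ones. So a single droplet was read as rich in Arhgap28 or as nearly free of it according to the set of columns.

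Over the 167 shared barcodes, the plain columns held 9502 Arhgap28 UMIs among 351603 in all, and the suffixed columns 8 among 291394. The levels were 270.2 and 0.275 per 10000, a ratio of 984 (95% interval 499 to 2281 from exact binomial limits, counting error only). The plain count was the higher in 167 of 167 barcodes, and 8 of them had a UMI in the suffixed columns. The cells' totals, by contrast, went together in the 2 sets, with a Pearson r of 0.998 and a median ratio of 1.21. The suffixed level, 0.272 over all 170 columns, lay inside the range of the other 26 reactions.

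**Figure D2:**
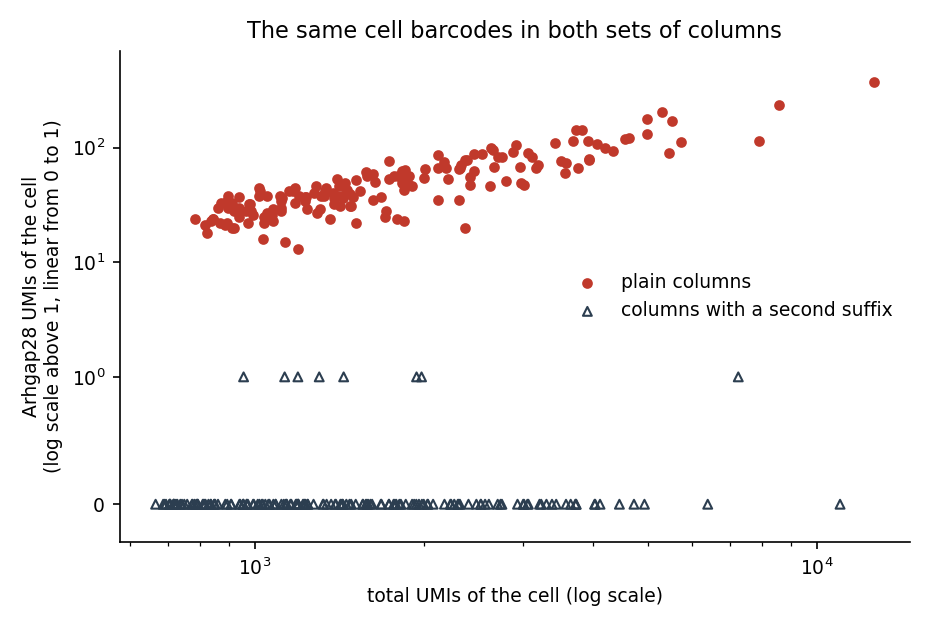
Arhgap28 UMIs against total UMIs for the 167 barcodes present in both sets of columns; the x axis is logarithmic, and the y axis is logarithmic above 1 and linear below. Every plain column (filled circles) lies at 13 or more and every suffixed column (open triangles) at 0 or 1.

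Arhgap28 was far from alone in differing between the sets, but no gene differed as much. Of 6294 genes with at least 20 UMIs over both sets, the log2 ratio of plain over suffixed columns had its percentiles 1 and 99 at −0.94 and 1.20, on the scale of log2(UMIs per 10000 + 0.1). Arhgap28 was at 9.49, and the next were RGD1564897 at 3.10, Sned1 at 3.07 and Hao1 at 3.06. At the other end stood Hhat at −4.36, Ctdspl2 at −3.78 and Ctnna3 at −3.70. Of the 30 genes with a log2 ratio of 2 or more in either direction, 27 lay outside the range of the other 26 reactions in the plain columns and 1 did so in the suffixed columns. Over all 6294 genes those shares were close, 7.48% and 8.31%. Idh3g, the leading gene, had 1925 per 10000 in the plain and 918 in the suffixed columns of the shared barcodes, and 251 to 915 in the other reactions. Beyond the suffix HiSeq4K, the sources used here do not give how the 2 sets were made. The part of that step in the Arhgap28 counts was not tested.

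**Figure D3:**
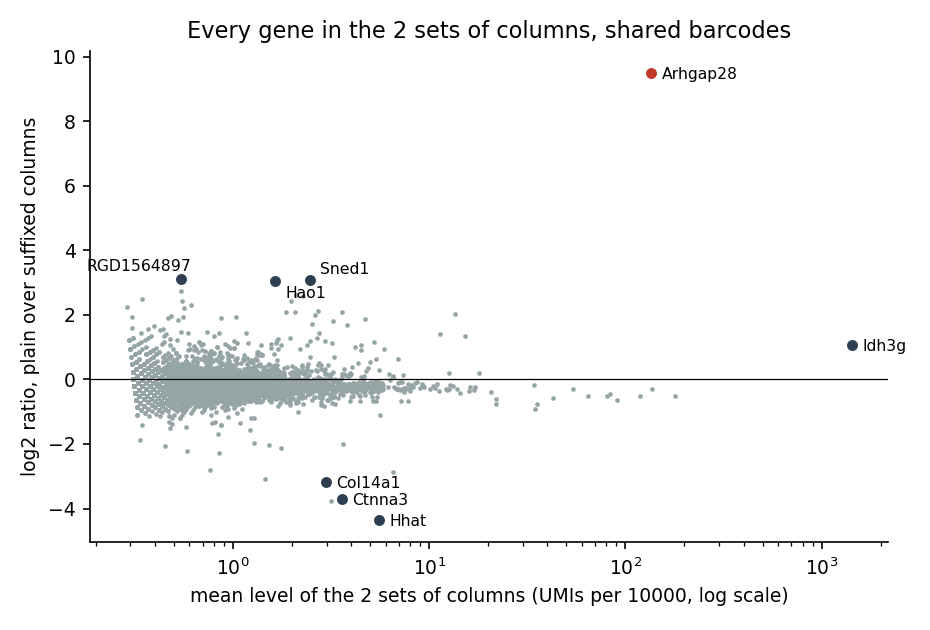
Log2 ratio of each gene's level in the plain over the suffixed columns, for the shared barcodes, against its mean level (log axis); each point is 1 of 6294 genes. Arhgap28 stands alone at 9.49, and the named genes below it lie between −4.36 and 3.10.

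The genes beside Arhgap28 on its chromosome and its close relatives were at like levels in both sets of columns or had few UMIs in either. By the order of genes in the rat assembly GRCr8, used for names only because these counts were made on rn5, the nearest genes of the tables are Ptprm, a receptor tyrosine phosphatase, and Lama1, a laminin chain, on one side and Tmem200c and Epb41l3 on the other. Ptprm was at 2.22 per 10000 in the reaction and at 2.79 in the suffixed columns, within the 0.954 to 3.19 of the other reactions. Lama1 had 2 UMIs in each set, Tmem200c 0 in each, and Epb41l3 8 in the plain and 9 in the suffixed columns. Of the relatives, all GTPase-activating proteins like Arhgap28, Arhgap18 was at 0.576 in the reaction and 0.510 in the suffixed columns, Arhgap40 at 0.0823 and 0.0680, Arhgap6 at 0.110 and 0.102, and Arhgap36 at 0.220 and 0.0340. All 4 relatives lay within the range of the other reactions in the plain columns.

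The cell classes of the reaction were alike in having the gene. A cell was put in a class when at least 3 of the class's marker genes were detected and no other class had as many. Endothelial marker-positive cells had the lowest level, 176.7 per 10000 in 18 cells, and mossy marker-positive cells the highest, 330.6 in 8 cells. The mossy class had 2 cells in the suffixed columns, and 119 of the 167 shared barcodes had the same class in both sets. The other barcodes were placed differently in the 2 sets, so the class names in this reaction are rough. Oligodendrocyte marker-positive cells were at 295.9 (14 cells), microglia at 241.9 (21 cells), astrocytes at 279.2 (10 cells) and excitatory neurons at 316.1 (19 cells). In the suffixed columns the microglia (27 cells), oligodendrocyte (16 cells) and excitatory neuron (14 cells) classes had 0 Arhgap28 UMIs, and the 8 UMIs of those columns were 3 in 16 endothelial cells (0.819 per 10000), 1 in an astrocyte, 1 in a granule cell and 3 in cells of no class. Cells of the reaction under 2% ribosomal UMIs (163 cells) were at 284.8 and the other 14 cells at 167.0.

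The reaction decided the direction of the venDG difference between treatments. In FT, the replicates were at 0.276, 71.7, 0.315, 0.245 and 0.183 per 10000 (replicates 1 to 5), a mean of 14.5 ± 32.0 (SD, n = 5). In Sham they were at 0.273, 0.457, 0.954, 0.225 and 0.394, a mean of 0.461 ± 0.291 (SD, n = 5). FT replicate 2 lay far above every other replicate, and the other 4 FT replicates lay within the lower part of the Sham range or just under it. Without the reaction, FT replicate 2 fell to 0.108 and the FT mean to 0.226 ± 0.0815, so that FT minus Sham changed from 14.1 to −0.235. With the suffixed columns in its place the replicate was at 0.145 and the difference at −0.228.

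Detection followed the same replicate. In FT replicate 2, 49.0% of 384 cells had an Arhgap28 UMI, beside 6.82% to 10.1% in the other FT replicates and 7.46% to 26.2% in Sham. Without the reaction the FT mean was 8.10% ± 2.04 (SD, n = 5) and the Sham mean 14.0% ± 7.52 (SD, n = 5). In edgeR, the venDG log2 fold change of Arhgap28, FT over Sham, was 5.20 (SE 1.61) with the reaction, in a fit over 4079 genes, and −0.84 (SE 0.39) without it, in a fit over 4045. With the reaction kept, it was 0.53 (SE 1.13) in the fit blocked on replicate number and 2.15 (SE 1.09) in cells with a ribosomal share of 2% or above.

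A single replicate also carried the highest Sham value. Sham replicate 3, at 0.954, had 21 Arhgap28 UMIs in only 42 cells, of which 11 had a UMI. Of those 21 UMIs, 11 were in its 11 oligodendrocyte marker-positive cells and 5 in its 2 endothelial marker-positive cells. Its counting interval, 0.590 to 1.46, overlapped that of the next Sham replicate, 0.311 to 0.649 around 0.457.

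The mural cells, for which the gene was singled out, showed the same reaction. All 16 mural markers in the tables were detected in the 110 mural marker-positive venDG cells. Among the pericyte markers Vtn was at 13.5 per 10000, Higd1b at 8.14, Rgs5 at 5.73 and Pdgfrb, the PDGF receptor of pericytes, at 5.33, each in over 80% of the cells. The smooth muscle genes Tagln (9.50), Myl9 (6.90) and Myh11 (3.15), which belong to the contractile apparatus, were detected in 17.3%, 60.0% and 16.4% of these cells. Some markers of other cell types were abundant as well. The endothelial markers Itm2a and Flt1 were at 17.9 and 13.9, in 85.5% and 58.2% of the cells, and the myelin gene Mbp was at 21.1. The remaining endothelial markers were detected in 1.82% (Cldn5) to 37.3% (Abcb1a) of the cells. The fibroblast markers were low, with Col6a1, Slc6a13, Igf2 and Ogn the most abundant at 1.34, 1.02, 1.02 and 0.377. Summed pericyte markers were at 29.4 to 75.4 per 10000 in FT and 37.4 to 78.6 in Sham replicates, summed endothelial markers at 16.1 to 60.7 and 9.63 to 60.7, and summed oligodendrocyte markers at 22.1 to 37.5 and 24.1 to 60.7. The part of these other cell types in the mural values was not tested.

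In mural cells of venDG, the FT replicates were at 0.414, 44.2, 0.0941, 0.484 and 0.809 per 10000, from 2 to 17 cells each. The Sham replicates were at 0.283, 0, 0.943, 0 and 0, from 1 to 20 cells each. FT replicate 2 stood apart, and its value came from 3 cells of the second reaction with 38, 78 and 112 Arhgap28 UMIs; its 14 mural cells of the first reaction had 0. Over the rest of venDG, 107 mural cells held 11 UMIs, a level of 0.212 (95% interval 0.106 to 0.379). FT minus Sham was 8.95 with the reaction and 0.115 without it. The value without it is small beside replicates that ranged from 0 to 0.943, and it was not tested.

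In dorDG, whose samples did not serve to choose the gene, Arhgap28 did not pass the test between treatments. The FT replicates were at 0.201, 0.169, 0.252 and 0.274 per 10000, a mean of 0.224 ± 0.0476 (SD, n = 4). The Sham replicates were at 0.136, 0.311, 0.367, 0.444 and 0.259, a mean of 0.303 ± 0.116 (SD, n = 5). The groups overlapped, with Sham replicate 1 below every FT replicate. FT minus Sham was −0.0790 per 10000, and a two-sided exact permutation test gave p = 0.254, where the smallest possible is 0.00794. Cells with a UMI made up 7.61% to 12.1% in FT and 6.09% to 18.0% in Sham, and the difference of −1.63 percentage points had p = 0.556 in the same exact test. Among cells under 2% ribosomal UMIs the sign of both differences turned (0.0388 per 10000 and 0.325 percentage points).

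Across all genes of dorDG, edgeR's quasi-likelihood test gave Arhgap28 a log2 fold change of −0.33 (SE 0.34), FT over Sham, with a Benjamini-Hochberg adjusted p of 0.50. The study's thresholds are an adjusted p no higher than 0.2 and a log2 fold change of 0.32 or more in either direction. They called 28.0% of 4275 genes, 515 higher in FT and 682 (16.0%) lower, and Arhgap28 was not among them. That background moves widely with the replicates used, from 0 to 2022 genes called when single replicates were left out, and 0 genes were called in the fit blocked on replicate number (889 under an unadjusted p of 0.05). Restricted to cells with a ribosomal share of 2% or above, edgeR called 0 of 3792 genes (94 under an unadjusted p of 0.05). Cells under 2% ribosomal UMIs made up 35.6% to 73.0% of the dorDG Sham replicates and 16.03% to 45.2% of the FT replicates. In venDG, 0 of 4079 genes passed edgeR's call rule; 236 of them were under an unadjusted p of 0.05, and 22 were called by DESeq2.

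In dorDG mural cells the difference between treatments did not pass the test. The class held 55 cells, of which the authors' annotation names 51 "Mossy"; 0 of the 72 cells with that name met the class rule for mossy cells, which needs more markers of that class than of any other, so they are called here by the class they met. Single mossy markers were detected in the 55 cells, Sv2c and Calcrl each in 47.3% and Gria3 in 41.8%. The other mossy markers were rarer, with Ap2s1 in 21.8%, Nrn1 in 10.9% and Ajap1 in 5.5% of the cells. Calb2, Drd2, Csf2rb and Kit had 0 UMIs there. The FT replicates were at 0.150, 0, 0.575 and 0.701 per 10000 (replicates 1, 2, 4 and 5; 9 to 13 cells each), and the Sham replicates with such cells at 0.855, 0, 0.419 and 0 (replicates 1, 2, 4 and 5; 1 to 6 cells each). Both groups ran from 0 to above 0.7. The difference was 0.0378 with an exact permutation p of 0.914, and its sign turned without FT replicate 4 or 5 or Sham replicate 2 or 5 (−0.0350, −0.0770, −0.0684 and −0.0684). Summed smooth muscle markers in these cells were at 3.02 to 37.1 per 10000 in FT and at 1.21 to 5.87 in Sham; their part in the comparison was not tested.

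Among the 12 annotated cell types of dorDG, with both treatments pooled, Arhgap28 was highest in Endothelial cells, at 0.443 per 10000 (exact Poisson 95% interval 0.299 to 0.632; 30 UMIs in 180 cells), and next in Oligodend2, an oligodendrocyte type, at 0.413 (0.272 to 0.601). Then followed ExcitNeuron at 0.313, the cells named Mossy at 0.297, Granule at 0.243, InhibNeuron and Oligodend1 both at 0.217, OPC at 0.199 and Microglia2 at 0.187. Lowest were Microglia1 at 0.0758, AstroSub1 astrocytes at 0.0645 and BergGlia, with 0 UMIs among 49756, which allows a level of up to 0.603 (3 counts). In all 11 neighbouring pairs of this order the intervals overlapped, while those of Endothelial and Microglia1 (0.0246 to 0.177) did not. Across replicates with at least 5 cells, Endothelial cells were at 0.429 ± 0.164 (SD, n = 9) with 0 replicates at 0, and AstroSub1 at 0.0666 ± 0.126 (SD, n = 8) with 6 at 0. The order differed between the treatments. Of the 9 types with enough replicates, Endothelial cells had the highest mean in Sham (0.516 ± 0.142, SD, n = 5), ahead of Oligodend2 (0.478 ± 0.235, n = 3), but in FT the cells named Mossy (0.357 ± 0.341, n = 4) and Oligodend2 (0.322 ± 0.268, n = 4) had means close to that of Endothelial (0.320 ± 0.128, n = 4). These levels are given as a description.

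The share of cells with a UMI gave a different order, which follows depth as well as level. It was 23.6% in ExcitNeuron cells (median 6372 UMIs per cell), 22.1% in Oligodend2 (7050 UMIs), 13.9% in Endothelial (2945 UMIs) and 1.82% in AstroSub1 (2317 UMIs). In BergGlia it was 0 of 43 cells (exact binomial upper limit 8.22%). No type is known from the sources used here to lack the gene, so no share here is a measured background. The astrocyte share, 2 of 110 cells, was the lowest among types with a UMI.

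In the ventral classes of at least 20 cells, with the reaction left out and treatments pooled, endothelial cells had the highest level. Endothelial marker-positive cells of venDG were at 0.665 (0.452 to 0.944; 31 UMIs in 119 cells), oligodendrocyte marker-positive cells at 0.424 (0.352 to 0.505; 124 UMIs in 631 cells), mural cells at 0.212, OPC at 0.118, microglia at 16 UMIs in 344 cells (0.0573 to 0.163) and astrocytes at 0.0367 (0.00444 to 0.133). That place rests on Sham, where the replicate mean was 1.31 ± 0.796 (SD, n = 5) in endothelial and 0.667 ± 0.611 in oligodendrocyte marker-positive cells. In FT the means were 0.243 ± 0.186 in endothelial, 0.317 ± 0.205 in oligodendrocyte and 0.360 ± 0.324 in mural cells (n = 5 each), all within 1 SD of each other. The marker classes are rougher than an annotation, since myelin RNA is found in cells of many kinds: 55 of the 180 Endothelial cells of dorDG were put in the oligodendrocyte class by their markers, and 65 in the endothelial class.

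**Figure D4:**
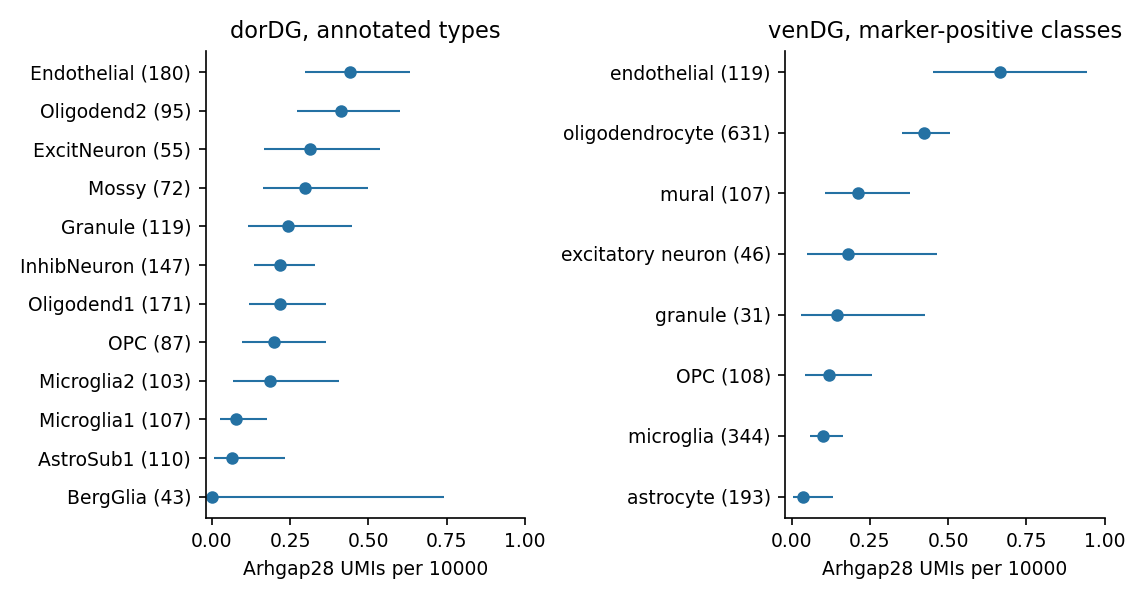
Arhgap28 level (UMIs per 10000) by annotated cell type in dorDG and by marker-positive class of at least 20 cells in venDG without the second reaction of FT replicate 2; bars are exact Poisson 95% intervals and numbers in brackets are cells. Both treatments are pooled, and the order within FT alone differed. Endothelial cells are at 0.443 and 0.665, and astrocytes are at 0.0645 and 0.0367.

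In endothelial cells the FT and Sham replicates of venDG did not overlap once the reaction was left out, a comparison chosen after its values were seen and given with no test. The FT replicates were at 0, 0.116, 0.343, 0.287 and 0.469 per 10000, with 6 UMIs in 62 cells in all. The Sham replicates were at 2.08, 0.608, 2.25, 0.698 and 0.883, with 25 UMIs in 57 cells. Every FT replicate was lower than every Sham replicate. Of 3493 genes with a mean of at least 0.5 per 10000 in these cells, 0.372% were separated in that direction and 0.544% in the other. With 5 replicates in each group, chance order alone separates a share of about this size in each direction. The shares therefore do not mark the separation of Arhgap28 as more than chance would give. With the suffixed columns in place of the reaction, FT replicate 2 was at 0.325, still under the Sham range, and with the plain columns it was at 66.3. Replicates rested on 2 to 22 cells and on 0 to 10 Arhgap28 UMIs each.

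In dorDG, punched from the same set of animals as venDG and so no independent check, the Endothelial cells gave FT replicates at 0.137, 0.336, 0.378 and 0.430 per 10000 (1, 2, 4 and 5) and Sham replicates at 0.477, 0.343, 0.437, 0.667 and 0.657. The groups overlapped between 0.343 and 0.430. The means were 0.320 ± 0.128 (SD, n = 4) and 0.516 ± 0.142 (SD, n = 5), and the difference of −0.196 had an exact two-sided permutation p of 0.0635, or 0.571 after Benjamini-Hochberg adjustment over 9 cell types. Of those 9 types, 0 passed the test, with unadjusted p from 0.0635 to 0.657, and 4 of the 9 differences were above 0.

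**Figure D5:**
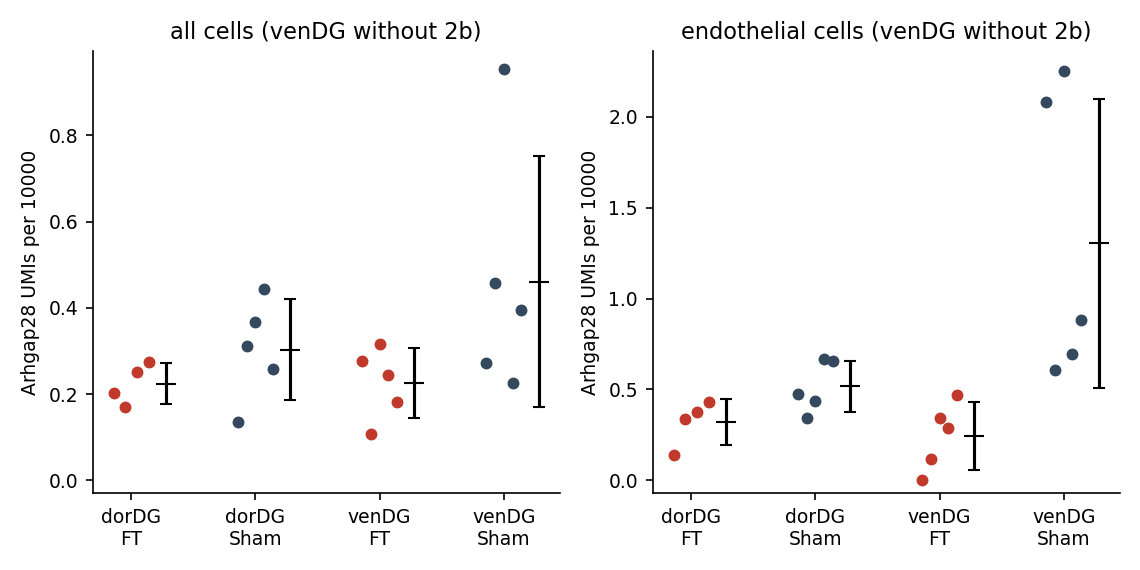
Arhgap28 level (UMIs per 10000) by replicate for FT (red) and Sham (blue) in all cells and in endothelial cells (annotated type in dorDG, marker-positive in venDG), venDG without the second reaction of FT replicate 2; lines are means and bars SD. In all cells the groups overlap in both regions, and in endothelial cells of venDG the FT replicates end at 0.469 and the Sham replicates begin at 0.608.

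The reactions could also be compared within replicates. The second reactions had 78.3% to 97.5% of their cells under 2% ribosomal UMIs, against 5.10% to 18.8% in the first. The part of that contrast in the differences between reactions was not tested. In 6 of the 8 replicates with 2 reactions the second was higher, by a mean of 34.0 per 10000 that rests on venDG FT replicate 2 (271.5). Since that value bears on the choice of the gene, the mean with it is given with no test. Without that replicate the mean difference was 0.0452, with p = 0.578 in an exact two-sided sign-flip permutation test. With the suffixed columns it was 0.0599, with an exact p of 0.383. Apart from that pair, differences ran from −0.192 in dorDG Sham replicate 2 to 0.365 in dorDG FT replicate 2.

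Untreated animals gave the level of the 2 regions. In Sham, venDG exceeded dorDG in 4 of 5 same-numbered replicates, by 0.137, 0.146, 0.587 and 0.135 per 10000 in replicates 1, 2, 3 and 5, and was lower by 0.219 in replicate 4. Paired by number, the mean difference of 0.157 had p = 0.312 in an exact sign-flip test. The exact two-sided permutation test, which ignores the pairing, gave p = 0.325. Without venDG Sham replicate 3 the difference was 0.0339 with an exact p of 0.635, so its size rests on that replicate of 42 cells.

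Among the close relatives only Arhgap18 reached the level for the test. In dorDG it was at 0.524, 0.599, 0.857 and 0.5996 per 10000 in FT replicates 1, 2, 4 and 5, and at 0.506, 0.605, 0.408, 0.493 and 0.685 in Sham. The groups overlapped, and the log2 fold change was 0.33 (SE 0.24, edgeR adjusted p = 0.345). Arhgap40, Arhgap6 and Arhgap36 were at means of 0.0993, 0.146 and 0.0668 in FT and 0.103, 0.154 and 0.0688 in Sham, each difference smaller than the SD of either group. In venDG, FT replicate 2 was at 0.637 for Arhgap18 and 0.0507 for Arhgap40, inside the range of the other FT replicates, at 0.145 for Arhgap6, just below the 0.152 of the next, and at 0.0942 for Arhgap36, above the 0.0681 of the next.

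The genes whose pattern over the 12 dorDG cell types was most like that of Arhgap28, of 4226 with a mean of at least 0.5 per 10000, were Coro1c, an actin-binding coronin (Pearson r = 0.872 on log2(UMIs per 10000 + 0.1)), Becn1, an autophagy protein (0.872), Apbb2 (0.865), Narf (0.851) and Zc3h7a (0.849). The points are cell types that share replicates and differ in depth, and the 95th percentile of r over all these genes was 0.636. Over the 9 venDG classes of at least 20 cells with the reaction included, Coro1c and Apbb2 were at −0.122 and −0.228, and Becn1, Narf and Zc3h7a at 0.276, 0.609 and 0.524. Over the 8 classes left without the reaction the same genes gave 0.720, 0.740, 0.625, 0.389 and 0.309 (Coro1c, Apbb2, Becn1, Narf, Zc3h7a), so for Coro1c and Apbb2 the likeness seen in dorDG had the opposite sign with the reaction and the same sign without it.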

How the data were processed

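Deposited tables of raw UMI counts per gene and cell were used. The authors made them with Cell Ranger 2.1.0 from HiSeq 4000 reads; the submitters' processing notes name the build rn5 and Seurat 3. The deposited counts were not normalized. The authors' annotation gave dorDG cell types, and their log-normalized venDG values were not used. No cells were removed, and no doublet caller was run.

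Counts were summed per replicate of the labels (4 libraries per reaction). Replicate values were tested by exact permutation, two-sided, with a threshold of 0.05 (scipy 1.17.1, Python 3.11.15), and all genes by edgeR 4.0.16 (quasi-likelihood F-test, TMM) after a filter of 0.5 UMIs per 10000, Arhgap28 kept. DESeq2 1.42.0 was an alternative. The code for the fits was tested on simulated data with 100 genes changed at each size. For venDG the second reaction of FT replicate 2 was left out. At a log2 change of 1, 58 genes were recovered in dorDG and 79 in venDG. At a log2 change of 2 the counts were 78 and 79. Unchanged genes that were called numbered 18 in dorDG and 46 in venDG. Sham replicates of the same number deviated together in the 2 regions (r of 0.185 to 0.563 in 5 of 5 pairs), so they were treated as pairs in an alternative; the labels give only the number. Within groups, none of 36 replicate pairs agreed within sampling noise (chi-square over its degrees of freedom, 2.97 to 17.1).

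The gene, the markers and the tests were chosen with earlier results of these data known. Named genes were Arhgap28, its 4 close relatives, the 5 genes most like it, and leading mural markers; others were chosen after their values were seen. A list of pathway genes is not reported here. Replicates are pools, and p-values measure the spread between pools. Intervals cover counting error only. Alternatives were leaving out replicates, ribosomal and study filters (at least 1000 genes, at most 20000 UMIs, at most 25% mitochondrial UMIs), thinning to 1000 UMIs, other mural limits, the replicate block and other fits. Leaving out or exchanging the second reaction of venDG FT replicate 2 was added after the data were seen.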

Additional observations from a re-analysis of the deposited data

Results flagged for a closer look

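Of 12 sets of replicate values examined for a sample far from the rest of its group (4 or 5 replicates each, Dixon's 95% limit, which chance passes in about 1 of 20 groups), 3 were marked, and all 3 were venDG FT replicate 2. The gene was chosen for its high values in that group, so these marks describe the choice and support nothing. Its level over all cells was 71.7 per 10000, its share of cells with a UMI 49.0%, and its level in mural cells 44.2, with 99.8%, 92.2% and 98.4% of the group's range lying between it and the next replicate. The columns with a second suffix, which served only in place of the reaction's plain columns or beside them, held Arhgap28 at 0.272 per 10000, above the 0.102 that 3 counts would give and far under the plain columns of the same reaction.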

How the results depend on the processing

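The venDG difference of FT minus Sham in UMIs per 10000 (14.1) turned to −0.235 without the second reaction of FT replicate 2 and to −0.228 with the suffixed columns in its place, ranged from −0.206 (without FT replicate 2) to 17.7 when single replicates were left out, was 37.5 among cells under 2% ribosomal UMIs and 1.24 among the others, and was 25.5 as a mean over cells. The difference in cells with a UMI (2.80 percentage points) turned to −5.93 and −5.98 under those exchanges, to −6.39 among cells of 2% ribosomal UMIs or more and to −2.63 under the study's filter, and ranged from −5.23 to 5.84 over left-out replicates. In venDG mural cells it fell from 8.95 to 0.115 under both exchanges, with 0.205 to 11.2 over left-out replicates. In dorDG the level and detection differences turned to 0.0388 and 0.325 among cells under 2% ribosomal UMIs and ranged from −0.121 to −0.0439 and from −3.07 to −0.0936 over left-out replicates, with exact permutation p from 0.0571 to 1 throughout. In dorDG mural cells the range over left-out replicates was −0.0770 to 0.217, with exact permutation p from 0.371 to 0.914, and the difference was 0.370 (exact p = 0.143) with the pericyte list alone. The paired-reaction range was 0.0452 to 38.9 and that of the Sham regions 0.0339 to 0.216, and the Sham regions did not pass 0.05 under any alternative run. The Arhgap28 log2 fold change in dorDG ranged from −0.56 to −0.14 over left-out replicates.

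Genes called in dorDG (1197) numbered 1842 with DESeq2, 32 with no minimum other than 10 UMIs, and 0 among cells of 2% ribosomal UMIs or more, and ranged from 0 (without FT replicate 4 or 5, or Sham replicate 3 or 5) through 1 (without Sham replicate 1) and 478 (without FT replicate 1) to 1832 and 2022 (without Sham replicate 4 or 2). Without TMM, 301 were higher and 810 lower, beside 515 and 682. In venDG, 0 became 22 with DESeq2. Replicate block: with the number as a factor, 0 genes were called in dorDG and the Arhgap28 log2 fold change was −0.23; paired by number, the dorDG differences were −0.0631 (level, exact p = 0.5), −0.0936 (percentage points, p = 1) and 0.0378 (mural, p = 1), and the paired Sham regions gave 0.157 (p = 0.312). Between FT and Sham of the same number, r was over 0.1 in 2 of 4 dorDG pairs, with 1 of 4 best with its own number. In venDG the counts were 4 of 5 and 3 of 5. So few correlations cannot decide whether a number marks a shared batch. For bulk tissue, the study's methods say that Sham and FT samples of a replicate were handled in parallel. The single-cell methods do not say so. The cause of the changes under these alternatives was not tested. With 153 Arhgap28 UMIs in dorDG and 231 in venDG outside the reaction, modest differences may have been missed at this depth.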
